A study of Mus musculus with 9 samples.

Results

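Genes for enzymes that add or remove acetyl and methyl marks on histones and DNA were followed through inflammatory polarization of RAW264.7 cells, a mouse macrophage cell line, with and without added iodide. They were taken by gene symbol, from the names of the lysine demethylases (Kdm), lysine methyltransferases (Kmt, Setd, Ezh), histone deacetylases (Hdac), sirtuins (Sirt), lysine acetyltransferases (Kat), DNA methyltransferases of the Dnmt3 family and methylcytosine oxidases (Tet). This gave 65 of the 12474 rows in the files: 7 acetyltransferases, 10 zinc-dependent deacetylases, 7 sirtuins, 18 lysine methyltransferases, 17 lysine demethylases and 6 genes of DNA methylation. The choice was made by symbol and not by measured value, though with earlier results of these data known. Other genes of these families, such as Tet1 and Hdac11, were not analysed here.

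Messenger RNA was sequenced from 3 groups of 3 libraries, all from wild-type RAW264.7 cells. The Mock group was left untreated. The M1 group received lipopolysaccharide (LPS), a bacterial cell wall component, at 100 ng/ml together with mouse interferon gamma at 50 ng/ml, a combination that drives the inflammatory state called M1. The group named I received the same agents with 20 mM potassium iodide present during polarization. No group with another potassium salt is among the samples, so the ion and the added salt itself cannot be told apart. Nothing in the labels ties replicates to separate cultures, and p-values therefore measure only how far these libraries differ, which may be technical variation. In bulk RNA, fewer cells of a kind and less RNA per cell cannot be told apart.

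Chromatin marks are written, erased and read by separate proteins. Acetyltransferases use acetyl-CoA to neutralise the charge of lysines and open chromatin, deacetylases take the acetyl group off, and the sirtuins do so with NAD as a cosubstrate. Methyltransferases use S-adenosylmethionine, and most demethylases are Jumonji enzymes that need iron, oxygen and oxoglutarate. In macrophages these enzymes set how strongly inflammatory genes answer LPS: deacetylase complexes with nuclear corepressors hold such genes down at rest, and the Polycomb methyltransferases and the demethylases Kdm6a and Kdm6b act on the same repressive mark in opposite ways.

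Values are FPKM, fragment counts scaled to exon length and library size, so levels can be set side by side between genes, and coordinates are those of GRCm38. Library totals, inferred as those that turn the values into whole fragments, were 17431070 to 25470730. At these totals 1 fragment on a 1 kb gene was worth 0.0393 to 0.0574 FPKM. Single members ranged from 0.0204 FPKM, for Dnmt3b in an I library, to 47.2 FPKM, for Sirt2 in an M1 library. The median coefficient of variation of a member within a group was 3.98%. All 8 macrophage markers checked were present, and Lyz2 and Csf1r stood at 3155 ± 43 and 343 ± 3.4 FPKM in Mock (SD, n = 3). The summed level of the 8 markers, most of it Lyz2 in Mock, was 4597 to 4683 FPKM (Mock), 3292 to 3406 (M1) and 2409 to 2520 (I). Singly, 5 of the 8 were higher and 3 lower in M1 than in Mock (30.5% and 55.3% of all genes). Adgre1 rose from 21.7 to 103 FPKM, while Csf1r fell to 69.8. In I against M1, 2 were higher and 6 lower (24.9% and 39.3%). Of 25 markers of other cell types, only 8 were among the rows. Those of dendritic cells summed to 0.302 to 0.64 FPKM, the lymphocyte marker Lck lay at 3.29 to 5.26 FPKM, and 4 osteoclast markers summed to 22.5 to 24.2 FPKM (Mock), 51.3 to 51.8 (M1) and 22.0 to 22.3 (I).

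Polarization lowered most of these genes. In M1 against Mock, 44 of the 64 members tested were lower and 16 higher at a limma adjusted p under 0.05, and 4 did not pass. Of the 64, Hdac7 passed the filter on low values only through the I libraries and Dnmt3b only through Mock, the group where each was highest, so a difference in them was built into their selection and they are in the counts but are described without a test. Calls of this kind were common in these libraries: 85.8% of the 11156 genes tested were called, 30.5% as higher and 55.3% as lower, and the libraries of the groups did not overlap in 86.4% of all genes. The members' median log2 fold change of (FPKM + 1) was −0.39, against −0.23 for all genes tested. At 2-fold or more on that scale 2 members rose, Sirt2 and Dnmt3l, and 12 fell, against 6.78% and 16.1% of all genes. Scaling moved this split. With median-of-ratios scaling (RLE), which centres the typical gene, the members were 21 higher and 32 lower, and the share of higher calls among all calls went from 35.6% to 50.3%. All 16 rises were called under RLE, upper quartile and quantile scaling and with limma-voom on recovered fragments, while 30 of the 44 falls were called in each of these that could be run. Kat6a, which is among the 30, and Hdac9 could not be run with limma-voom. The members called lower whose sign turned under at least 1 scaling were Hdac4, Hdac6, Hdac8, Kat6b, Kat7, Kdm3a, Kmt2a, Kmt2b, Setd6, Sirt4 and Tet2.

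Iodide during polarization raised and lowered these genes in near equal number. In I against M1, 24 members were higher, 21 lower and 19 did not pass, where 64.2% of all genes were called, 24.9% as higher and 39.3% as lower, and 67.2% of all genes had no overlap of libraries. The members' median log2 fold change was 0.04 and that of all genes −0.07. No member reached a 2-fold difference on the log2(FPKM + 1) scale, a size reached upward by 1.06% and downward by 0.771% of all genes. The lysine demethylases held 11 of the 24 rises and 3 of the 21 falls, and no sirtuin rose. With RLE scaling 28 members were higher and 15 lower, and the share of higher calls over all genes went from 38.8% to 49.6%. No member called in this comparison changed sign under the other scalings or limma-voom, and 23 of the 24 rises and 15 of the 21 falls were called in each that could be run, with Kat6a and Hdac9 again without a limma-voom value. Both comparisons use the M1 libraries, so their values are not independent of each other.

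**Figure D1:**
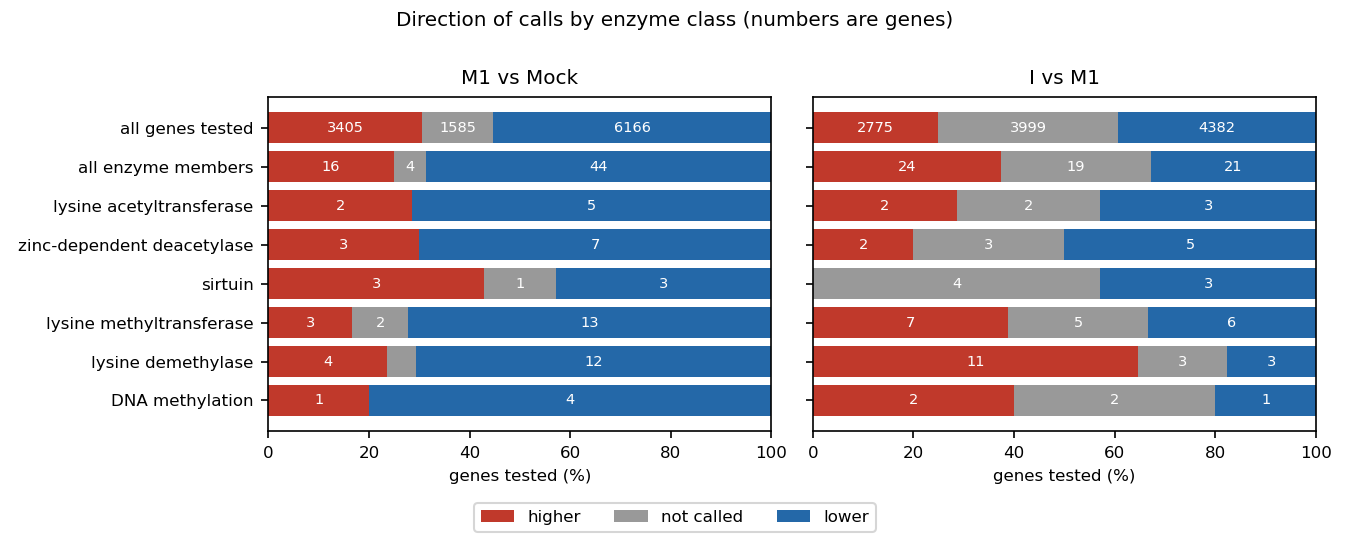
Share of genes called higher, called lower or not called (x axis, % of genes tested, with gene numbers in the bars) for all genes tested, all enzyme members and each enzyme class, in M1 vs Mock (left) and I vs M1 (right). Under the deposited scaling shown, falls outnumber rises on the left in every class but the sirtuins, which does not hold for the acetyltransferases with RLE or quantile scaling or for the zinc-dependent deacetylases with quantile scaling, and the lysine demethylases have 11 rises against 3 falls on the right.

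Promoter windows of 3 members are shown because they differ in base composition and in the direction of the gene. They are those of Hdac7, for the largest difference with iodide, Kat2a, for the largest falls, and Tet2. Tet2 rose with iodide, while its fall with polarization depended on the scaling. Each window is the 250 bases before a RefSeq transcript start (GRCm38.p6), read 5′ to 3′ along the gene, here chr15:97831768-97832017, chr11:100712468-100712717 and chr3:133544391-133544640, all on the minus strand and outside annotated exons. Hdac7 has further starts that are not shown. Capitals mark matches, on either strand, to any of 6 searched motifs, namely NF-kB (GGG, any 2 bases, TTTCC), ISRE (GAAA, any 2 bases, GAAA), GAS (TTCNNNGAA), E2F (TTTCCCGC or TTTGGCGC), HRE (ACGTG) and AP-1 (TGACTCA). The GC box (GGGCGG) was searched too and is left in lower case.
Hdac7: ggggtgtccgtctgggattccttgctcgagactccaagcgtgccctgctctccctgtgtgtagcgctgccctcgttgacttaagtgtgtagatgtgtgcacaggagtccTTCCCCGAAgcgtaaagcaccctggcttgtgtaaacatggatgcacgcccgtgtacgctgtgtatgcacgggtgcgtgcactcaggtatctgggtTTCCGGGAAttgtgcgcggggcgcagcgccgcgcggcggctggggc
Kat2a: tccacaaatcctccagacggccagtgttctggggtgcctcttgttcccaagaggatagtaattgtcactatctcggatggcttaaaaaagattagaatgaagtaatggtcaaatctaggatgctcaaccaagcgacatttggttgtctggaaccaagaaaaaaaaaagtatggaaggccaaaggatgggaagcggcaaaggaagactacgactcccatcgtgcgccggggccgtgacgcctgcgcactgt
Tet2: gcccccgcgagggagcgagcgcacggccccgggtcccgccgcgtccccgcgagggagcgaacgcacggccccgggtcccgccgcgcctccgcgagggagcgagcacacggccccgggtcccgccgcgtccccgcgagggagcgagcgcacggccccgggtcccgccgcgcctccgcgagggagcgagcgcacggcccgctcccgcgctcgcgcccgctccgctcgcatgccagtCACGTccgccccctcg
The Hdac7 window shown held a pair of GAS matches. Of the Hdac7 windows not shown, chr15:97814864-97815113 held a single GAS match. Those at chr15:97831496-97831745 and chr15:97844503-97844752 held no match to the 6 motifs. The Kat2a window held no match to the 6 motifs, and that of Tet2 held an HRE match in a run with 51 CpG dinucleotides and 83.6% GC. The Hdac7 window shown had 21 CpGs and that of Kat2a 11.

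Such windows could be read for 53 of the 65 members, 77 windows in all, against 32851 windows of all genes. The members' windows had a median of 17 CpGs and 61.2% GC, against 6 and 52.4% for all. A GC box stood in 58.4% of the members' windows and in 32.7% of all. HRE stood in 22.1% of the members' windows and 16.6% of all, GAS in 9.09% and 7.02%, and AP-1 in 7.79% and 4.46%. E2F stood in 2.6% and 1.3%, NF-kB in 1.3% and 1.41%, and ISRE in 1.3% and 2.98%. Among the members these last shares rest on 2 windows for E2F and 1 each for NF-kB and ISRE. Differences in these shares were not tested. A match describes letters and not binding, and motifs of different names can overlap.

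Among the acetyltransferases the largest member change was the loss of Kat2a (ENSMUSG00000020918.14, chr11:100704746-100712465), the catalytic subunit of the SAGA and ATAC coactivator complexes, also known as Gcn5. Kat2a was at 28.3, 26.9 and 27.9 FPKM in the Mock libraries, 5.86, 5.72 and 6.11 in M1 and 3.44, 2.93 and 3.38 in I. The 3 groups did not overlap, and the order was Mock, M1, I from high to low. It fell by 2.06 ± 0.05 (SE) on the log2(FPKM + 1) scale in M1 (limma adjusted p = 1.61e-11), the largest fall of any member on that scale. With iodide it fell by a further 0.70 ± 0.05 (limma adjusted p = 7.50e-07), again the largest on that scale. By the ratio of mean FPKM, the low-level Dnmt3b and Dnmt3aos fell further in M1. With iodide Hdac10 (0.537) fell slightly further by that ratio than Kat2a (0.551). The Kat2a paralog Kat2b, also called PCAF, went the other way with iodide. Kat2b was at 12.6, 12.4 and 12.2 FPKM in the Mock libraries, 7.16, 7.36 and 7.34 in M1 and 8.62, 8.19 and 8.38 in I, with no overlap between groups. It fell in M1 (−0.69 ± 0.03 SE, limma adjusted p = 4.75e-09) and rose in I against M1 (0.18 ± 0.03 SE, limma adjusted p = 0.000869).

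The MYST acetyltransferases were divided. Kat6a (MOZ), which acetylates histone H3 and is needed for blood stem cells, was at 16.5, 16.2 and 16.6 FPKM in the Mock libraries, 5.78, 5.56 and 5.72 in M1 and 6.68, 6.91 and 6.94 in I. Its Mock libraries were far above all others. Kat6a fell in M1 (−1.38 ± 0.03 SE, limma adjusted p = 1.64e-11) and rose with iodide (0.23 ± 0.03 SE, limma adjusted p = 0.000158). Kat8 (MOF), which acetylates histone H4, was at 4.58, 4.46 and 5.24 FPKM in the Mock libraries, 6.66, 7.45 and 7.46 in M1 and 5.63, 5.03 and 5.5 in I. The M1 libraries were above all others, while I and Mock overlapped. Kat8 rose in M1 (0.51 ± 0.06 SE, limma adjusted p = 1.75e-05) and fell in I against M1 (−0.36 ± 0.06 SE, limma adjusted p = 0.000606). Kat5 (TIP60), the catalytic subunit of the NuA4 complex, was at 6.89, 6.8 and 6.62 FPKM in the Mock libraries, 8.79, 8.42 and 8.12 in M1 and 8.8, 8.25 and 8.22 in I. It rose in M1 (0.28 ± 0.04 SE, limma adjusted p = 7.06e-05) and M1 and I overlapped (limma adjusted p = 0.963). The other 2 members fell in M1 by 0.15 (Kat6b) and 0.10 (Kat7) in log2 fold change. The Kat6b fall turned with quantile scaling, and the Kat7 fall turned with RLE, upper quartile and quantile scaling. The Kat6b call was lost without Mock replicate 3 or M1 replicate 1 (limma adjusted p = 0.0763 to 0.0858) and the Kat7 call without Mock replicate 1, Mock replicate 2 or M1 replicate 2 (limma adjusted p = 0.0615 to 0.0747), and Kat7 fell with iodide as well (−0.25 ± 0.03 SE, limma adjusted p = 9.72e-05).

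The acetyltransferases outside these names were read from a list of 10 further genes. Of these 9 fell in M1 and none rose (55.3% and 30.5% of all genes), and with iodide 2 rose and 2 fell (24.9% and 39.3%). Ep300, the p300 coactivator, was at 13.8 ± 0.41 FPKM (Mock) (SD, n = 3 here and in later group means), 6.87 ± 0.15 (M1) and 9.26 ± 0.36 (I). It fell in M1 (−0.91 ± 0.04 SE, limma adjusted p = 1.40e-09) and rose with iodide (0.38 ± 0.04 SE, limma adjusted p = 1.02e-05). Hat1, which acetylates newly made histones, fell with iodide from 31 ± 1.6 to 21.1 ± 0.42 FPKM (−0.53 ± 0.04 SE, limma adjusted p = 7.96e-07). Among 9 bromodomain and related readers of acetyl-lysine, 8 fell in M1 (55.3% of all genes) and none rose (30.5%), and with iodide 2 rose (24.9%) and 5 fell (39.3%).

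The zinc-dependent deacetylases also split by member. The class I enzyme Hdac2, a subunit of the Sin3, NuRD and CoREST corepressor complexes, was at 23.5, 23.9 and 24 FPKM in the Mock libraries, 10.1, 10.6 and 9.74 in M1 and 7.95, 8.22 and 7.58 in I. No groups overlapped, and levels went down from Mock to M1 to I. Hdac2 fell in M1 (−1.15 ± 0.04 SE, limma adjusted p = 2.04e-10) and again with iodide (−0.32 ± 0.04 SE, limma adjusted p = 3.63e-05). Hdac1, its partner in the same complexes and the member with the highest mean in Mock, was at 39.9, 40.6 and 38.9 FPKM in the Mock libraries, 28.3, 30.0 and 29.2 in M1 and 28.1, 29.5 and 28.1 in I. It fell in M1 (−0.44 ± 0.03 SE, limma adjusted p = 1.50e-07), and I did not differ from M1 beyond the spread (−0.03 ± 0.03 SE, limma adjusted p = 0.484). Hdac3, a class I deacetylase of nuclear corepressor complexes, took the opposite course. Hdac3 was at 15, 14.2 and 14.4 FPKM in the Mock libraries, 18.2, 19.1 and 17.6 in M1 and 21.8, 22.1 and 19.8 in I. The groups did not overlap and their order was Mock, M1, I from low to high. It rose in M1 (0.31 ± 0.05 SE, limma adjusted p = 5.17e-05) and with iodide (0.20 ± 0.05 SE, limma adjusted p = 0.00258). The ratio of Hdac3 to Hdac2 FPKM, which no scaling of whole libraries affects, was 0.61 ± 0.025 in Mock, 1.80 ± 0.008 in M1 and 2.68 ± 0.06 in I (SD, n = 3). This pair was chosen for the ratio after its values were seen.

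Class IIa deacetylases shuttle between nucleus and cytoplasm and bind MEF2 factors. Hdac7 (ENSMUSG00000022475.19, chr15:97792664-97844502), with a promoter window printed above, was at 0.0988, 0.153 and 0.0880 FPKM in the Mock libraries, 0.439, 0.393 and 0.358 in M1 and 1.82, 1.86 and 1.61 in I. It was among the lowest members in Mock, and each group lay above the one before it without overlap. The I to M1 ratio of mean FPKM was 4.45, the only ratio of a member above 2 in that comparison, and on the log2(FPKM + 1) scale, which understates low genes, the difference was 0.98 ± 0.06 (SE). The difference of M1 from Mock was 0.33 ± 0.06 on that scale. Hdac7 lay below the filter of 0.5 FPKM in all Mock and M1 libraries and was in the fit only because of the I libraries, so no test is given. Hdac5 was at 7.05, 6.58 and 6.87 FPKM in the Mock libraries, 10.8, 10.8 and 11.4 in M1 and 9.91, 10.8 and 10.6 in I. It rose in M1 (0.61 ± 0.04 SE, limma adjusted p = 1.04e-07), and its I and M1 libraries overlapped. Hdac9 was at 3.52, 3.29 and 3.09 FPKM in the Mock libraries, 2.08, 1.98 and 1.94 in M1 and 1.42, 1.27 and 1.32 in I, in falling order without overlap. Hdac9 fell in M1 (−0.52 ± 0.05 SE, limma adjusted p = 3.17e-06), a call lost with quantile scaling (−0.11, limma adjusted p = 0.0892), and with iodide (−0.36 ± 0.05 SE, limma adjusted p = 0.000167). Hdac4 was at 1.34, 1.24 and 1.46 FPKM in the Mock libraries, 1.01, 1.24 and 1.07 in M1 and 0.817, 0.871 and 0.960 in I, and its M1 libraries overlapped those of Mock. Its calls were near the threshold (limma adjusted p = 0.0375 against Mock and 0.0407 with iodide) and were lost or, for M1 vs Mock, turned under other scalings. M1 vs Mock did not pass without Mock replicate 1, Mock replicate 3, M1 replicate 1 or M1 replicate 3 (limma adjusted p = 0.0708 to 0.132), nor I vs M1 without Mock replicate 1, M1 replicate 2, M1 replicate 3, I replicate 1 or I replicate 2 (limma adjusted p = 0.0539 to 0.15).

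Of the remaining deacetylases, Hdac10, a polyamine deacetylase, was at 5.19, 4.92 and 4.9 FPKM in the Mock libraries, 1.81, 1.75 and 1.63 in M1 and 1.09, 0.870 and 0.831 in I. It was lower in every M1 library than in Mock and lower again in every I library (−0.50 ± 0.06 SE, limma adjusted p = 3.24e-05). It lies outside the rule for named genes and was picked after its values were seen. Hdac6, the tubulin deacetylase, and Hdac8 were lower in M1 by 0.27 and 0.36 in log2 fold change, calls that depended on the scaling. In a list of 19 corepressor subunits, 4 rose and 13 fell in M1 (30.5% and 55.3% of all genes), and 6 rose and 6 fell with iodide (24.9% and 39.3%). The NCoR complex subunit Gps2 fell in M1 from 18 ± 0.28 to 5.56 ± 0.67 FPKM (−1.54 ± 0.08 SE, limma adjusted p = 1.15e-08). With iodide the NuRD subunit Mta1 fell from 21.8 ± 1.3 to 12.8 ± 0.25 FPKM (−0.72 ± 0.04 SE, limma adjusted p = 1.02e-07).

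**Figure D2:**
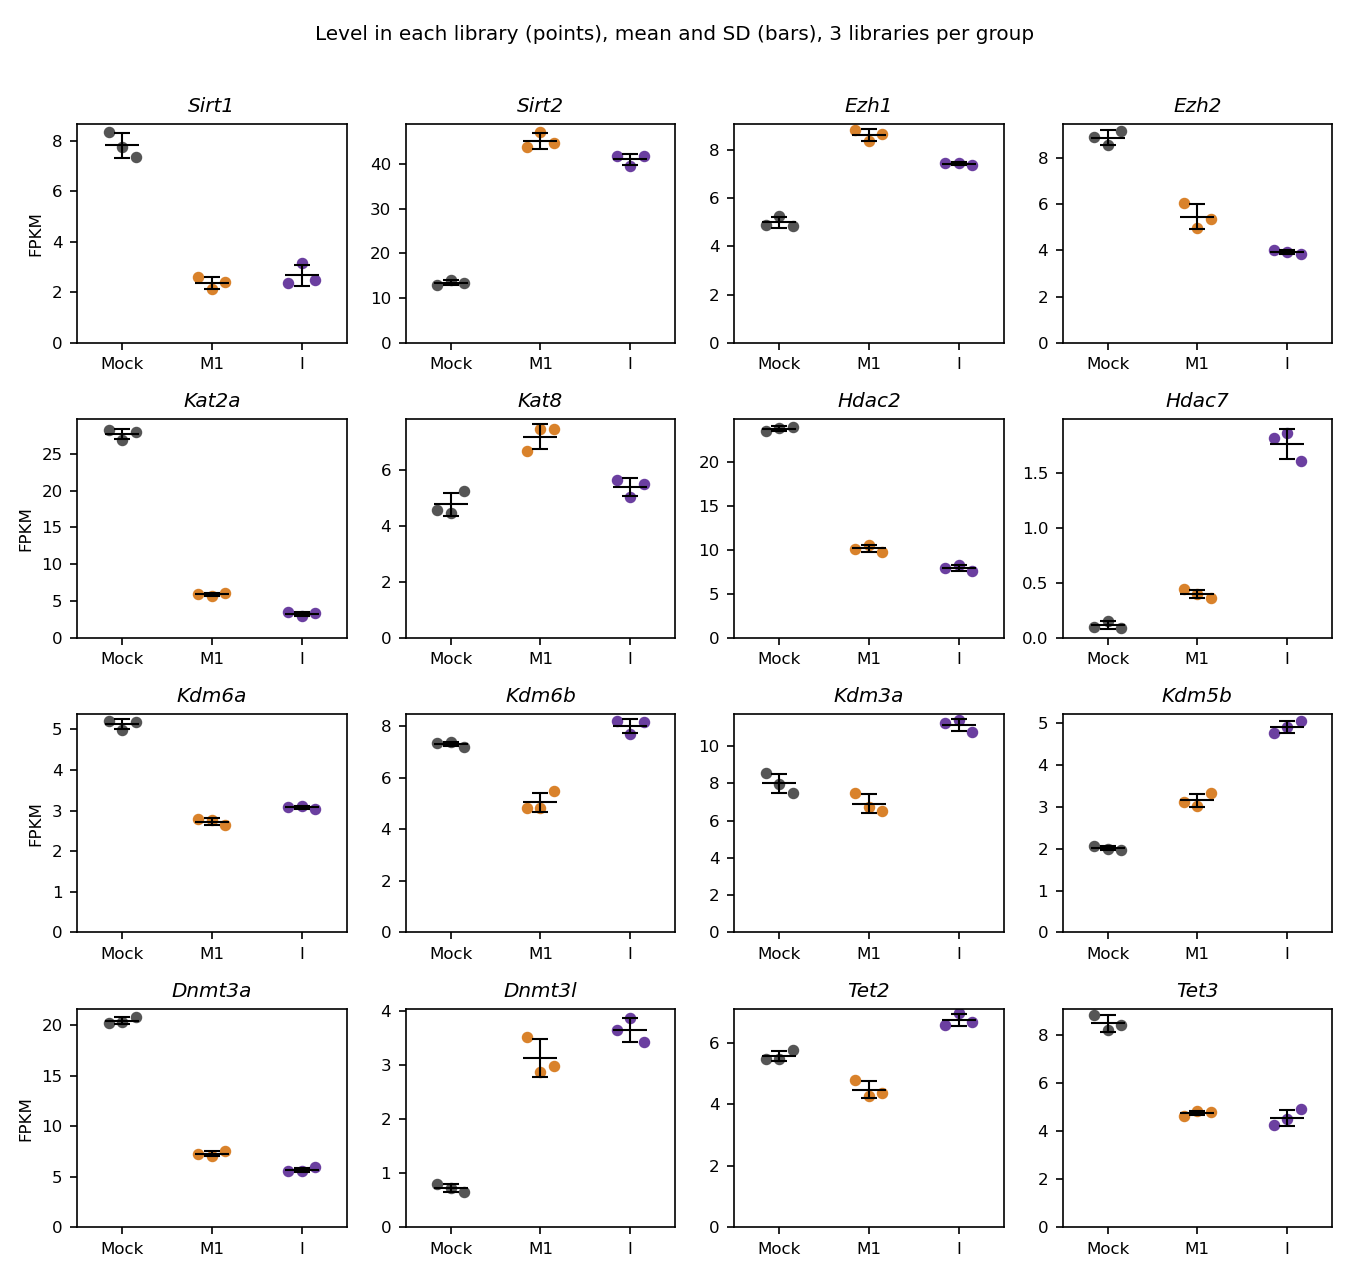
FPKM (y axis, from 0) of 16 members in each of the 9 libraries, by group (x axis). Points are libraries and bars are the mean and SD of 3 libraries. Sirt2 is at 43.8 to 47.2 FPKM in M1 against 12.8 to 14.0 in Mock, Kat2a and Hdac2 step down from Mock to M1 to I, and Hdac7 steps up.

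Under the deposited scaling 3 sirtuins rose and 3 fell in M1, against 30.5% and 55.3% of all genes. The counts were 3 and 2 with RLE and 4 and 1 with quantile scaling. Sirt2 (ENSMUSG00000015149.14, chr7:28766735-28788661), which acts mainly in the cytoplasm on tubulin and other proteins and can deacetylate histone H4, was at 12.9, 14 and 13.4 FPKM in the Mock libraries, 43.8, 47.2 and 44.7 in M1 and 41.8, 39.7 and 41.8 in I. All M1 and I libraries stood far above Mock, and the I libraries were below those of M1. Its M1 rise of 1.68 ± 0.04 (SE, limma adjusted p = 1.11e-11) was the largest of any member on the log2(FPKM + 1) scale. By the ratio of mean FPKM, the low-level Dnmt3l (4.32) and Hdac7 (3.50) rose more than Sirt2 (3.37). Sirt2 had the highest mean of all members in M1. The difference between I and M1 was small (−0.14 ± 0.04 SE, limma adjusted p = 0.0108) and was not called with RLE or quantile scaling. Sirt1, a nuclear deacetylase known to act on the p65 subunit of NF-kB, moved the other way. Sirt1 was at 8.34, 7.75 and 7.34 FPKM in the Mock libraries, 2.59, 2.13 and 2.39 in M1 and 2.38, 3.14 and 2.49 in I. Mock stood apart from both polarized groups, which overlapped each other. Sirt1 fell in M1 (−1.39 ± 0.08 SE, limma adjusted p = 2.40e-08), and I did not differ from M1 beyond the spread (0.12 ± 0.08 SE, limma adjusted p = 0.226). The ratio of Sirt2 to Sirt1 FPKM was 1.73 ± 0.16 in Mock, 19.3 ± 2.7 in M1 and 15.7 ± 2.6 in I (SD, n = 3). This pair, too, was set side by side after its values were seen.

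The other nuclear sirtuins rose with polarization and fell with iodide. Sirt6, which acts on histone H3 at glycolytic and NF-kB target genes, was at 9.39, 10.2 and 9.06 FPKM in the Mock libraries, 13, 13.7 and 13.5 in M1 and 10.4, 10.6 and 10.8 in I. The groups did not overlap, with I between Mock and M1. It rose in M1 (0.45 ± 0.04 SE, limma adjusted p = 1.86e-06) and fell in I against M1 (−0.31 ± 0.04 SE, limma adjusted p = 0.000103). Sirt7, a nucleolar sirtuin, was at 7.7, 7.98 and 7.62 FPKM in the Mock libraries, 15.3, 16.5 and 15.3 in M1 and 14.3, 14.4 and 13.8 in I. All polarized libraries were above all Mock libraries. Sirt7 rose in M1 (0.93 ± 0.04 SE, limma adjusted p = 9.54e-10), and its fall with iodide (−0.14 ± 0.04 SE, limma adjusted p = 0.00897) was lost with RLE or quantile scaling. Of the mitochondrial sirtuins, Sirt3 was at 1.32, 1.01 and 1.23 FPKM in the Mock libraries, 1.13, 1.07 and 1.07 in M1 and 1.25, 1.13 and 1.09 in I, with overlap between all groups and no call, but with a rise in M1 under quantile scaling. Sirt4 and Sirt5 were lower in M1 by 0.35 and 0.42 in log2 fold change, calls that were lost under some scalings, and neither passed in I against M1.

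The lysine methyltransferases were lower in M1 for 13 of 18 genes and higher for 3, against 55.3% and 30.5% of all genes, and with RLE or quantile scaling 10 were lower and 6 higher. The Polycomb pair moved apart. Ezh2 (ENSMUSG00000029687.16, chr6:47530139-47595341), the catalytic subunit of PRC2 that is abundant in dividing cells, was at 8.91, 8.56 and 9.19 FPKM in the Mock libraries, 6.06, 4.98 and 5.35 in M1 and 4.01, 3.91 and 3.85 in I. Ezh1 (ENSMUSG00000006920.14, chr11:101191115-101226463), its paralog of resting cells, was at 4.9, 5.27 and 4.83 FPKM in the Mock libraries, 8.86, 8.37 and 8.67 in M1 and 7.47, 7.48 and 7.38 in I. For both genes the 3 groups did not overlap, but Ezh2 was highest in Mock and Ezh1 highest in M1. Ezh2 fell in M1 (−0.62 ± 0.06 SE, limma adjusted p = 1.47e-06) and with iodide (−0.39 ± 0.06 SE, limma adjusted p = 0.000174). Ezh1 rose in M1 (0.68 ± 0.04 SE, limma adjusted p = 2.53e-08) and fell in I against M1 (−0.19 ± 0.04 SE, limma adjusted p = 0.00202), so both were lower with iodide. Their summed FPKM was 13.8 to 14.0 (Mock), 13.4 to 14.9 (M1) and 11.2 to 11.5 (I). The Ezh1 to Ezh2 ratio, free of library scaling and also chosen after the values were seen, was 0.564 ± 0.046 in Mock, 1.59 ± 0.11 in M1 and 1.90 ± 0.031 in I (SD, n = 3). Of 9 other PRC2 subunits 8 fell in M1 and 1 rose (55.3% and 30.5% of all genes), and with iodide 4 rose and 2 fell (24.9% and 39.3%). The 1 that rose was Phf1, an accessory subunit, from 1.92 ± 0.12 to 5.72 ± 0.33 FPKM (1.20 ± 0.05 SE, limma adjusted p = 1.43e-09). Suz12, a core subunit, was higher in I than in M1, at 29.4 ± 0.67 against 22.3 ± 0.56 FPKM (0.38 ± 0.03 SE, limma adjusted p = 1.82e-06).

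Marks of active promoters and enhancers are written by the Kmt2 and Setd1 enzymes of the COMPASS complexes. Kmt2d, the enhancer methyltransferase MLL4, was at 13.7, 12.5 and 13.7 FPKM in the Mock libraries, 5.08, 5.65 and 5.73 in M1 and 6.06, 6.66 and 6.78 in I. Mock stood far above, and I lay above M1 without overlap. It fell in M1 (−1.14 ± 0.06 SE, limma adjusted p = 4.75e-09) and rose with iodide (0.21 ± 0.06 SE, limma adjusted p = 0.00751). Setd1a, which writes promoter methylation, was at 5.81, 5.69 and 5.74 FPKM in the Mock libraries, 3.48, 3.57 and 2.84 in M1 and 4.76, 4.67 and 5.13 in I. Its groups did not overlap. Setd1a fell in M1 (−0.65 ± 0.07 SE, limma adjusted p = 2.28e-06) and rose with iodide (0.45 ± 0.07 SE, limma adjusted p = 0.000137), but 51.8% of its exon bases are shared with Gm49388 on the same strand, so its reads cannot be assigned with certainty. Kmt2e (MLL5), a family member without clear catalytic activity, was at 6.98, 6.97 and 6.87 FPKM in the Mock libraries, 4.2, 3.89 and 4.11 in M1 and 5.67, 5.91 and 6.17 in I. The groups did not overlap and I lay between M1 and Mock. Kmt2e fell in M1 (−0.65 ± 0.04 SE, limma adjusted p = 6.30e-08) and rose in I (0.45 ± 0.04 SE, limma adjusted p = 6.33e-06). Kmt2a (MLL1) was at 8.12, 7.46 and 8.0 FPKM in the Mock libraries, 6.79, 6.42 and 6.54 in M1 and 5.83, 6.77 and 7.01 in I, with I overlapping M1. Its fall in M1 was −0.22 ± 0.06 (SE, limma adjusted p = 0.00447) and turned to a slight rise with RLE or quantile scaling. All 5 Kmt2 genes were called lower in M1 (55.3% of all genes), of which the calls of Kmt2c, Kmt2d and Kmt2e did not depend on the scaling. The sign of Kmt2a and Kmt2b turned under other scalings. The Kmt2b call was lost without Mock replicate 1, Mock replicate 2, Mock replicate 3, M1 replicate 1, M1 replicate 2 or I replicate 1 (limma adjusted p = 0.0502 to 0.112). Of 10 partners of the COMPASS enzymes, not all of them shared by every complex, 2 rose and 8 fell in M1 (30.5% and 55.3% of all genes). With iodide 3 rose and 4 fell, shares near those of all genes (24.9% and 39.3%).

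Setd2, the methyltransferase that marks the bodies of transcribed genes, was at 11.4, 11.1 and 10.6 FPKM in the Mock libraries, 3.97, 3.98 and 4.15 in M1 and 4.31, 4.77 and 4.72 in I. All Mock libraries were far above the rest, and I lay just above M1 without overlap. Setd2 fell in M1 (−1.26 ± 0.05 SE, limma adjusted p = 4.37e-10), the largest fall in its class on the log2(FPKM + 1) scale. By the ratio of mean FPKM, Setd1b (0.3133) and Kmt5b (0.3593) fell further than Setd2 (0.3655). Setd2 was slightly higher in I than in M1 (0.15 ± 0.05 SE, limma adjusted p = 0.0151), which did not pass without I replicate 2 (limma adjusted p = 0.0554). Kmt5a (SET8), the histone H4 monomethyltransferase whose protein level follows the cell cycle, was at 31.2, 32 and 31.2 FPKM in the Mock libraries, 18.3, 18.6 and 17.5 in M1 and 12.6, 12.1 and 12 in I. Its groups did not overlap and fell in steps. Kmt5a fell in M1 (−0.76 ± 0.03 SE, limma adjusted p = 1.54e-09) and with iodide (−0.54 ± 0.03 SE, limma adjusted p = 2.23e-07). Kmt5b, which adds further methyl groups to the same residue, was at 4.18, 3.9 and 3.76 FPKM in the Mock libraries, 1.45, 1.37 and 1.44 in M1 and 2.24, 2.46 and 2.29 in I. Mock was highest and M1 lowest, without overlap. It fell in M1 (−1.03 ± 0.05 SE, limma adjusted p = 4.92e-09), and in contrast to Kmt5a it was higher with iodide (0.46 ± 0.05 SE, limma adjusted p = 1.88e-05).

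Setd6, which methylates the p65 subunit of NF-kB and so restrains it, was at 9.26, 8.56 and 9.43 FPKM in the Mock libraries, 7.08, 8.12 and 7.51 in M1 and 4.83, 5.15 and 4.67 in I. The I libraries were lowest, below every M1 library. Setd6 fell with iodide (−0.54 ± 0.06 SE, limma adjusted p = 1.03e-05), the largest fall in its class for that comparison, while its M1 fall (−0.24 ± 0.06 SE, limma adjusted p = 0.00212) turned sign with RLE or quantile scaling. Setd4, a little-studied methyltransferase, was at 1.88, 1.64 and 1.58 FPKM in the Mock libraries, 3.85, 3.53 and 3.44 in M1 and 2.79, 2.35 and 2.57 in I. It rose in M1 (0.77 ± 0.07 SE, limma adjusted p = 5.15e-07) and fell in I against M1 (−0.37 ± 0.07 SE, limma adjusted p = 0.000539), with no overlap. Setd7, which monomethylates histone H3 and other proteins, was at 11.3, 10.8 and 11.6 FPKM in the Mock libraries, 8.43, 8.21 and 7.99 in M1 and 8.07, 8.13 and 8.61 in I. Mock was above both polarized groups, which overlapped. Setd7 fell in M1 (−0.41 ± 0.04 SE, limma adjusted p = 1.83e-06) and did not differ between I and M1 beyond the spread (limma adjusted p = 0.847).

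Of 18 methyltransferases with other names, 2 rose and 14 fell in M1 (30.5% and 55.3% of all genes), and 6 rose and 3 fell with iodide (24.9% and 39.3%). Smyd5 fell in M1 from 14.7 ± 0.64 to 3.2 ± 0.18 FPKM (−1.90 ± 0.06 SE, limma adjusted p = 5.70e-11). Dot1l, which methylates the core of histone H3 in transcribed genes, rose from 18 ± 0.082 to 26.2 ± 0.52 FPKM (0.52 ± 0.03 SE, limma adjusted p = 1.56e-08). Setdb1, which silences repeats and endogenous retroviruses, rose with iodide from 9.94 ± 0.3 to 14.6 ± 0.41 FPKM (0.51 ± 0.03 SE, limma adjusted p = 3.99e-07). The protein arginine methyltransferases fell in 7 of 8 cases in M1 (55.3% of all genes) and in 6 of 8 with iodide (39.3%). The 1 that rose in M1 was Prmt2, from 8.75 ± 0.61 to 20.5 ± 0.73 FPKM (1.14 ± 0.05 SE, limma adjusted p = 9.78e-10). Prmt1, the main enzyme of asymmetric arginine methylation, fell with iodide from 17.9 ± 1.3 to 9.92 ± 0.037 FPKM (−0.79 ± 0.05 SE, limma adjusted p = 1.33e-07).

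The lysine demethylases were mostly lower in M1, with 12 of 17 lower and 4 higher (55.3% and 30.5% of all genes), and mostly higher with iodide, with 11 higher and 3 lower (24.9% and 39.3%). The summed FPKM of the class was 157 to 163 (Mock), 128 to 131 (M1) and 149.6 to 157 (I). Kdm6b (ENSMUSG00000018476.7, chr11:69398508-69413675), also called JMJD3, removes the Polycomb mark and is known as an LPS-induced gene in macrophages. Kdm6b was at 7.35, 7.38 and 7.22 FPKM in the Mock libraries, 4.82, 4.85 and 5.49 in M1 and 8.21, 7.7 and 8.16 in I. The M1 libraries were lowest, and the I libraries were above every Mock library. It fell in M1 (−0.46 ± 0.05 SE, limma adjusted p = 4.01e-06) and rose in I against M1 (0.58 ± 0.05 SE, limma adjusted p = 2.50e-06). Kdm6a (UTX), which acts on the same mark, was at 5.2, 4.99 and 5.18 FPKM in the Mock libraries, 2.79, 2.75 and 2.63 in M1 and 3.08, 3.12 and 3.03 in I. Mock stood well above the polarized groups, and I was slightly above M1. Kdm6a fell in M1 (−0.72 ± 0.04 SE, limma adjusted p = 2.22e-08) and rose with iodide (0.13 ± 0.04 SE, limma adjusted p = 0.0194), a call lost without M1 replicate 3 or I replicate 2 (limma adjusted p = 0.0544 to 0.0647). The LPS exposure time is not stated in the sources used here.

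Kdm3a, which removes repressive methylation of histone H3 and is known as a hypoxia-induced gene, had the largest iodide rise in its class. It was at 8.54, 7.94 and 7.51 FPKM in the Mock libraries, 7.48, 6.74 and 6.52 in M1 and 11.2, 11.4 and 10.7 in I. Mock and M1 lay close together and every I library was above both. Kdm3a rose with iodide (0.62 ± 0.06 SE, limma adjusted p = 3.99e-06), while its small M1 fall (−0.19 ± 0.06 SE, limma adjusted p = 0.00909) turned sign with RLE or quantile scaling. Its paralog Kdm3b was at 8.68, 9.0 and 8.69 FPKM in the Mock libraries, 3.28, 3.3 and 3.2 in M1 and 3.44, 3.66 and 3.61 in I. Mock stood far above, and the I libraries were slightly above M1. Kdm3b fell in M1 (−1.20 ± 0.04 SE, limma adjusted p = 1.93e-10), the largest fall in the class on the log2(FPKM + 1) scale. By the ratio of mean FPKM, Kdm8 fell further (0.247, against 0.371 for Kdm3b). The I to M1 difference of Kdm3b, 0.10 ± 0.04, was near the threshold (limma adjusted p = 0.0491). The call was lost without any of 8 single libraries, namely Mock replicate 1, Mock replicate 2, Mock replicate 3, M1 replicate 1, M1 replicate 2, M1 replicate 3, I replicate 2 or I replicate 3 (limma adjusted p = 0.0644 to 0.135). Kdm2a, a CpG-island binding demethylase, was at 11, 11.3 and 11.4 FPKM in the Mock libraries, 5.67, 5.94 and 5.94 in M1 and 8.94, 9.25 and 9.2 in I. The I libraries lay between M1 and Mock, without overlap. Kdm2a fell in M1 (−0.84 ± 0.04 SE, limma adjusted p = 1.19e-09) and rose with iodide (0.56 ± 0.04 SE, limma adjusted p = 2.43e-07).

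The Kdm5 demethylases remove the methyl marks of active promoters. Kdm5b was at 2.07, 1.99 and 1.97 FPKM in the Mock libraries, 3.12, 3.01 and 3.32 in M1 and 4.76, 4.91 and 5.06 in I. The groups did not overlap and rose from Mock to M1 to I. Kdm5b rose in M1 (0.46 ± 0.05 SE, limma adjusted p = 2.66e-06) and with iodide (0.51 ± 0.05 SE, limma adjusted p = 4.75e-06). Kdm5c, an X-linked and more abundant member, was at 21.1, 20.7 and 20.5 FPKM in the Mock libraries, 23.6, 23.9 and 25 in M1 and 29.2, 29.7 and 32.1 in I, in the same order. It rose in M1 (0.21 ± 0.04 SE, limma adjusted p = 0.000346) and with iodide (0.32 ± 0.04 SE, limma adjusted p = 3.52e-05). Kdm5d, its Y-linked paralog, was at 3.58, 3.41 and 3.67 FPKM in the Mock libraries, 1.79, 1.76 and 1.8 in M1 and 1.49, 1.58 and 1.57 in I, in the reverse order. Kdm5d fell in M1 (−0.71 ± 0.05 SE, limma adjusted p = 5.35e-08), and its fall with iodide (−0.13 ± 0.05 SE, limma adjusted p = 0.0303) was lost under 3 of the 4 other scalings and without M1 replicate 1, M1 replicate 2, M1 replicate 3, I replicate 1 or I replicate 3 (limma adjusted p = 0.051 to 0.0872). The sequences of Kdm5c and Kdm5d are alike enough that reads may have been shared between them. Both lie outside the rule for named genes and were picked with earlier results of these data known. Kdm4b, which acts on repressive methylation and is also known to respond to hypoxia, was at 6.2, 5.98 and 5.41 FPKM in the Mock libraries, 11.2, 11.9 and 12.4 in M1 and 12.3, 12.8 and 12.7 in I. It rose in M1 (0.90 ± 0.05 SE, limma adjusted p = 1.49e-08). Its I to M1 difference was 0.08 ± 0.05 SE and did not pass (limma adjusted p = 0.17), but passed with RLE scaling (0.15, limma adjusted p = 0.0195).

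Kdm1a (LSD1), a flavin-dependent demethylase that works with Hdac1, Hdac2 and CoREST, is not a Jumonji enzyme. Kdm1a was at 23.5, 23.2 and 21.9 FPKM in the Mock libraries, 15.3, 15.4 and 15.3 in M1 and 16.3, 18.2 and 17.4 in I. Mock was highest, and the I libraries were all above those of M1. Kdm1a fell in M1 (−0.54 ± 0.04 SE, limma adjusted p = 2.09e-07) and rose with iodide (0.16 ± 0.04 SE, limma adjusted p = 0.00612). Among the 15 Jumonji members, 10 rose with iodide, 2 fell (Kdm4a and Kdm5d) and 3 did not pass, against 24.9% and 39.3% of all genes. In a list of 10 other Jumonji proteins 6 rose with iodide (24.9% of all genes) and none fell (39.3%). Of the same list 1 rose and 8 fell in M1 (30.5% and 55.3%). Jmjd6, a hydroxylase and not an established histone demethylase, was the 1 that rose in M1, from 13.8 ± 0.48 to 30.3 ± 0.29 FPKM (1.09 ± 0.03 SE, limma adjusted p = 3.40e-11). It rose further with iodide, to 46.7 ± 0.49 FPKM (0.61 ± 0.03 SE, limma adjusted p = 3.84e-08).

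**Figure D3:**
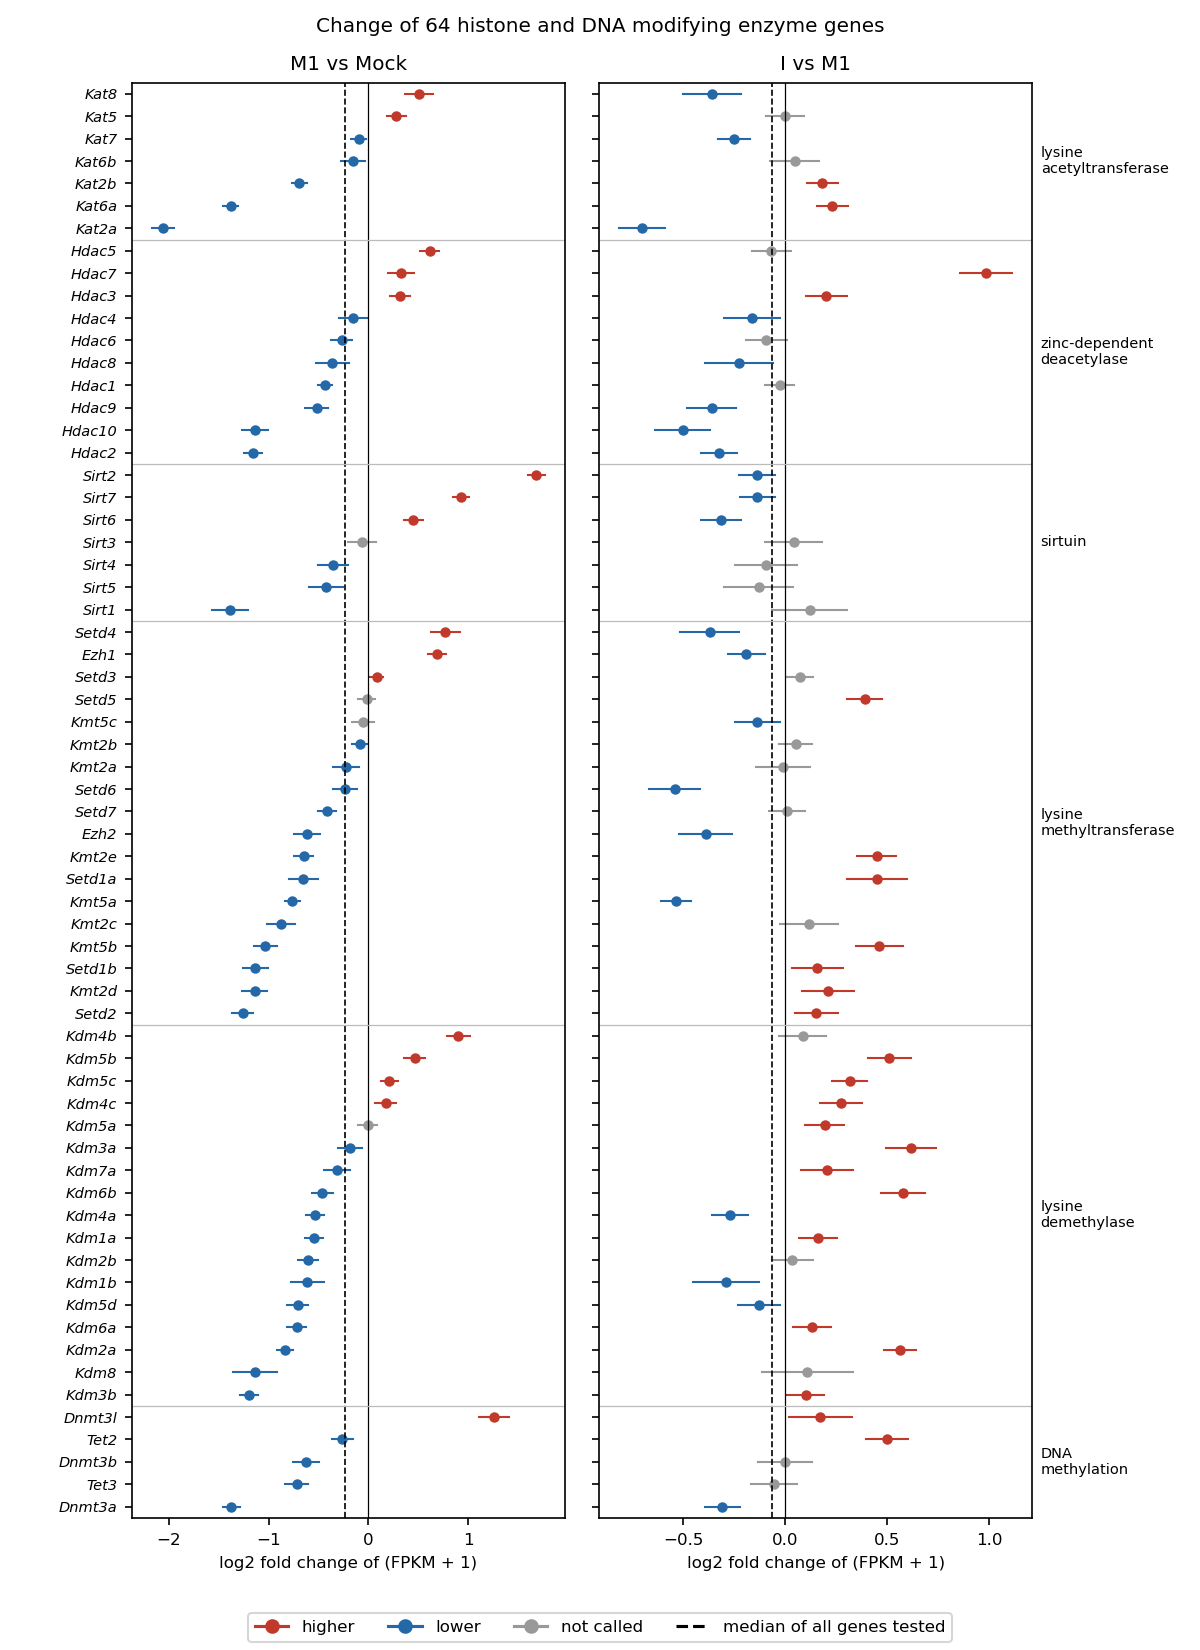
Log2 fold change of (FPKM + 1) with its 95% confidence interval (x axis) for the 64 members tested, by enzyme class (y axis), in M1 vs Mock (left) and I vs M1 (right). Colours give the limma call at an adjusted p under 0.05, and dashed lines mark the median of all genes tested, at −0.23 and −0.07. Sirt2 and Kat2a are the extremes on the left, Hdac7 and Kat2a on the right. Hdac7 and Dnmt3b are coloured too, but each passed the filter only through the group where it was highest, so no test is given.

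In the DNA methylation group the de novo methyltransferase Dnmt3a (ENSMUSG00000020661.15, chr12:3806007-3914443) was at 20.2, 20.3 and 20.8 FPKM in the Mock libraries, 7.24, 7.04 and 7.57 in M1 and 5.56, 5.59 and 5.94 in I. The groups did not overlap and went down in steps. Dnmt3a fell in M1 (−1.37 ± 0.04 SE, limma adjusted p = 4.43e-11) and with iodide (−0.31 ± 0.04 SE, limma adjusted p = 4.71e-05). Dnmt3l, a catalytically inactive partner that stimulates Dnmt3a and is best known from germ cells, was at 0.802, 0.730 and 0.647 FPKM in the Mock libraries, 3.53, 2.88 and 3.0 in M1 and 3.65, 3.88 and 3.43 in I. All polarized libraries were above Mock, and M1 and I overlapped. Dnmt3l rose in M1 (1.26 ± 0.07 SE, limma adjusted p = 1.17e-08), and its I to M1 difference was at the threshold (limma adjusted p = 0.049) and did not pass without Mock replicate 1, Mock replicate 2, Mock replicate 3, M1 replicate 2, M1 replicate 3, I replicate 1 or I replicate 2 (limma adjusted p = 0.053 to 0.169). Dnmt3b, the other de novo enzyme, was at 0.546, 0.618 and 0.708 FPKM in the Mock libraries, 0.0492, 0.0448 and 0.0661 in M1 and 0.0369, 0.107 and 0.0204 in I, with M1 and I overlapping at a few fragments per library. Its log2 difference of M1 from Mock was −0.62 ± 0.06 (SE), given without a test because Dnmt3b passed the filter only through the Mock libraries. Dnmt3aos, an antisense RNA of the Dnmt3a locus and not an enzyme, lay below the filter on low values, at 0.879, 0.580 and 0.465 FPKM in the Mock libraries, 0.0726, 0.0330 and 0.0406 in M1 and 0.0681, 0.0393 and 0.113 in I. It shares 9.6% of its exon bases with Dnmt3a on the opposite strand. Without a stated use of strand, reads in these shared bases cannot be assigned to either gene.

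Tet enzymes oxidise methylcytosine on the way to its removal. Tet2, the most studied of them in macrophages, was at 5.48, 5.47 and 5.75 FPKM in the Mock libraries, 4.8, 4.28 and 4.35 in M1 and 6.58, 6.95 and 6.68 in I. M1 was lowest and I highest, without overlap. Tet2 rose in I against M1 (0.50 ± 0.05 SE, limma adjusted p = 5.66e-06), and its M1 fall (−0.26 ± 0.05 SE, limma adjusted p = 0.000301) was lost with RLE scaling and turned with quantile scaling. Tet3 was at 8.84, 8.18 and 8.39 FPKM in the Mock libraries, 4.64, 4.82 and 4.79 in M1 and 4.24, 4.5 and 4.91 in I. It fell in M1 (−0.72 ± 0.05 SE, limma adjusted p = 1.12e-07), and I overlapped M1 (limma adjusted p = 0.385). Among 12 genes of methylation maintenance, methyl-CpG binding and base excision, 4 rose and 7 fell in M1, shares near those of all genes (30.5% and 55.3%), and 3 rose and 3 fell with iodide (24.9% and 39.3%). The maintenance methyltransferase Dnmt1 was at 33.8 ± 0.55 FPKM (Mock), 15.3 ± 0.43 (M1) and 10.7 ± 0.36 (I). It fell in M1 (−1.10 ± 0.03 SE, limma adjusted p = 9.87e-11) and with iodide (−0.48 ± 0.03 SE, limma adjusted p = 6.68e-07). Its partner Uhrf1 went from 24 ± 0.21 to 6.78 ± 0.5 and 5.11 ± 0.2 FPKM. Gadd45b, a stress-induced adaptor that has been linked to DNA demethylation, was at 8.06 ± 0.53, 107 ± 0.58 and 249 ± 2.2 FPKM. It rose in M1 (3.58 ± 0.04 SE, limma adjusted p = 2.75e-14) and with iodide (1.21 ± 0.04 SE, limma adjusted p = 1.36e-09).

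Genes that supply the cofactors of these enzymes were read from a list of 10, of which 2 rose and 7 fell in M1 (30.5% and 55.3% of all genes), and 1 rose and 7 fell with iodide (24.9% and 39.3%). Mat2a, which makes S-adenosylmethionine, fell in M1 from 56.1 ± 1.2 to 6.5 ± 0.37 FPKM (−2.93 ± 0.05 SE, limma adjusted p = 7.17e-13). Idh2, the mitochondrial isocitrate dehydrogenase that makes oxoglutarate, fell from 48.2 ± 1.3 to 13.4 ± 0.28 and, with iodide, to 7.62 ± 0.57 FPKM (−0.75 ± 0.05 SE, limma adjusted p = 2.42e-07). Acss2, which makes acetyl-CoA from acetate, rose in M1 (0.56 ± 0.05 SE, limma adjusted p = 1.07e-06) and fell with iodide (−0.66 ± 0.05 SE, limma adjusted p = 1.32e-06).

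Proliferation markers moved with the groups. All 8 fell in M1 (55.3% of all genes), and their summed level was 307 to 311 FPKM (Mock), 88.4 to 93.5 (M1) and 87.1 to 87.5 (I). Most of the sum in M1 and I was Pcna, at 65.5 ± 2.3 FPKM (M1) and 71.8 ± 0.58 (I). Mki67 was at 58.2 ± 1.1 FPKM in Mock and 2.32 ± 0.25 in M1. With iodide 7 fell (39.3% of all genes) and 1 rose (24.9%), which was Pcna (0.13 ± 0.03 SE, limma adjusted p = 0.00182). None was at 0, but the files hold only rows above 0 in every library. The part of proliferation in the falls of Ezh2, Kmt5a, Dnmt1 and Uhrf1, genes that dividing cells are known to express, was not tested.

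The difference between I and M1 went along with gene length among the members. Across the 64 members Spearman's rho of the log2 fold change with summed exon length was 0.408, and across the 10938 tested genes with a length it was 0.191. Genes are not independent replicates, and this is a description. The 64 include Kat6a and Hdac9, whose exon lengths here differ from those behind the deposited values. When members were divided by length into 3 parts, the shortest had a median log2 fold change of −0.12 and the longest 0.14. In M1 vs Mock rho was −0.207 for the members and −0.206 for all genes, and in I vs Mock −0.034 and −0.131. The members are long, with a median of 6716 bases against 4275.

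**Figure D4:**
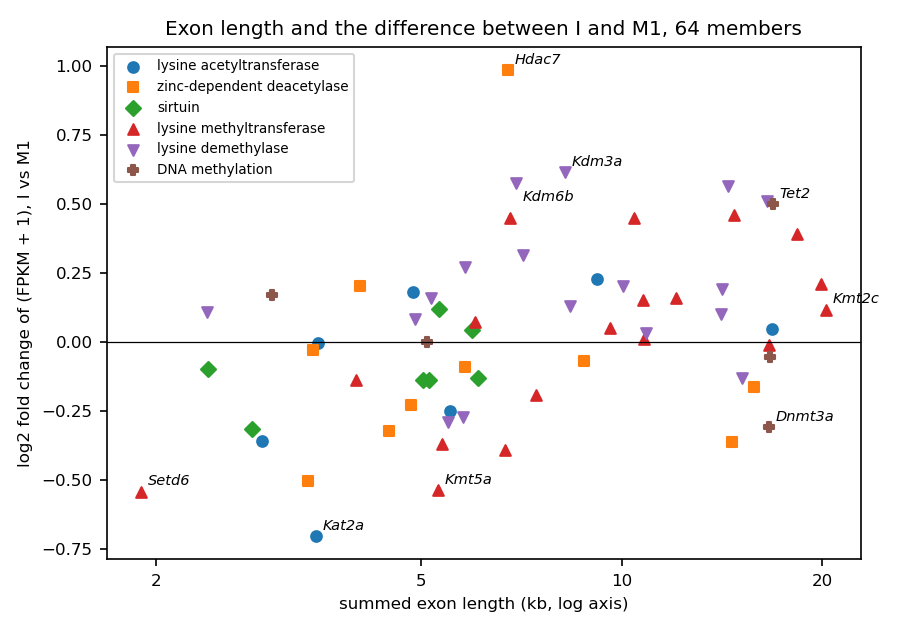
Log2 fold change of (FPKM + 1) in I vs M1 (y axis) against summed exon length in kb (x axis, log scale) for the 64 members, with a marker shape per enzyme class. Short genes such as Setd6 and Kat2a lie below 0 and long ones such as Tet2 above it (rho = 0.408). Dnmt3a and Hdac7 are among several members away from that trend. Others are Hdac4 and Kdm5d, long and below 0, and Hdac3 and Kat2b, short and above it.

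Against Mock, iodide-treated polarized cells had 21 members higher, 39 lower and 4 not called, where 86.8% of all genes were called, 28.2% as higher and 58.6% as lower. Under RLE scaling the members were 26 higher and 29 lower, and the share of higher calls over all genes went from 32.5% to 49.9%. At 2-fold or more 3 members rose and 11 fell, against 6.98% and 18% of all genes. The 3 were Sirt2 (1.54), Dnmt3l (1.43) and Hdac7 (1.31), the last with the limit on its filter given above. Kat2a had the largest fall on the log2(FPKM + 1) scale, −2.76 ± 0.05 (SE, limma adjusted p = 1.54e-12). Kdm3a, Kdm5b and Tet2 were above Mock in every I library, by 0.43, 0.97 and 0.24 in log2 fold change. The excess of Kdm6b over Mock was 0.12 ± 0.05 (SE, limma adjusted p = 0.0431), which did not pass without Mock replicate 1, Mock replicate 2, Mock replicate 3, I replicate 1 or I replicate 3 (limma adjusted p = 0.0715 to 0.115). Kdm2a, Kmt2e and Setd1a were lower than Mock by 0.27, 0.20 and 0.21, and the sign of all 3 turned with RLE and quantile scaling. This comparison shares its libraries with the other 2.

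Some members overlap other genes, which matters because the use of strand in counting is not given in the sources used here. Besides Setd1a, exon overlap was largest for Kdm3b (24.6% with Gm26538), Hdac4 (22.4% with Gm26720) and Kat5 (12.1% with Rnaseh2c). It was under 10% for Kmt2e (9.3%), Kdm1b (9.2%), Sirt3 (7%), Kmt5b (6.3%) and Kdm2b (5.8%). For Kat6a and Hdac9 the FPKM did not convert to whole fragments with the annotation used here, so their exon lengths differ from those behind the deposited values.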

How the data were processed

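The authors deposited 1 table per library with a gene name and a value. No header names the unit. It was read as FPKM from the values, since the deposited FPKM multiplied by summed exon length (GENCODE vM21, GRCm38, 97.8% of rows matched) gave whole fragments, within 0.05, in 98.43% to 98.58% of values. The submitters' processing notes name HISAT2 2.2.1, featureCounts 2.0.1 (Subread) and fastp 0.20.1, with GRCm38. Their settings, including strand use, are not given in these sources. The tables hold only rows above 0 in every library, and other genes were not used.

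Rows with at least 0.5 FPKM in at least 3 libraries were tested (11156 kept, 1318 removed, which left 64 of 65 members). limma 3.58.1 in R 4.3.3 was fitted to log2(FPKM + 1) of all 9 libraries with an intensity trend, and p-values were adjusted over all rows by Benjamini-Hochberg. Genes were called at 0.05. No set test was run. The fit was also run on simulated data, the outcome of which is not reported here.

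The members and lists were chosen with earlier results of these data known. Genes were named by rule: in M1 vs Mock and in I vs M1, the 8 largest rises and 8 largest falls among called members with at least 2 FPKM in the higher group and no overlap, the largest change per class, and a list of key members. Of the partner lists the 2 largest rises and falls could be named, and some of these are. Members named outside this rule are given for the class counts, except Hdac10, Kdm5c and Kdm5d, which were picked and are given with their values. Pearson's r between libraries of a group was 0.9968 to 0.9973, and no pair was alike within sampling noise. The alternatives were 3 other scalings, limma-voom on recovered fragments, a pseudocount of 0.1, 2 other filters, no trend, only the groups compared, a replicate block and leaving out each library. Promoter sequences came from RefSeq (GRCm38.p6).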

Additional observations from a re-analysis of the deposited data

How the results depend on the processing

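Under the deposited scaling 16 members rose and 44 fell in M1 vs Mock. The counts were 21 and 32 with RLE, 18 and 37 with upper quartile scaling, and 24 and 30 with quantile normalization. For I vs M1 they were 24 and 21, then 28 and 15, 25 and 18, and 26 and 15. For I vs Mock they were 21 and 39, then 26 and 29, 22 and 34, and 28 and 28. Over all genes, 4762 were higher in I than in Mock with RLE, against 3146. RLE shifted the median gene in M1 vs Mock from −0.23 to 0.01. The reason for these shifts was not tested. Some log2 fold changes of members called in at least 1 of the settings compared went from below 0 to above it. Changes of sign with no call in either setting are not listed. With RLE these were, for M1 vs Mock, Kdm3a 0.080, Setd6 0.034, Kmt2a 0.041, Hdac4 0.011, Kat7 0.19, Kdm5a 0.27, Kmt2b 0.18, Kmt5c 0.21 and Setd5 0.26, and for I vs Mock Kdm2a 0.071, Kmt2e 0.12, Setd1a 0.11, Kmt2a 0.095, Sirt3 0.18, Kat7 0.0045, Kdm7a 0.24, Kmt2b 0.30 and Kmt5c 0.14. With quantile normalization they were, for M1 vs Mock, Kdm3a 0.11, Tet2 0.09, Setd6 0.051, Kmt2a 0.076, Hdac4 0.19, Sirt3 0.25, Kat6b 0.14, Kat7 0.074, Kdm5a 0.26, Kmt2b 0.22, Kmt5c 0.27, Setd5 0.24, Sirt4 0.048, Hdac6 0.12 and Hdac8 0.027, and for I vs Mock Kdm2a 0.019, Kmt2e 0.16, Setd1a 0.20, Kmt2a 0.11, Hdac4 0.051, Sirt3 0.35, Kat6b 0.22, Kdm7a 0.15, Kmt2b 0.30, Kmt5c 0.19, Sirt4 0.017 and Hdac6 0.091. With upper quartile scaling they were, for M1 vs Mock, Kat7 0.067, Kdm5a 0.15, Kmt2b 0.067 and Setd5 0.14, and for I vs Mock Kmt2b 0.15. In I vs M1 no such turn was seen, while uncalled members near 0 such as Kat5 and Kmt2a changed sign. Leaving out single libraries gave 15 to 16 rises and 41 to 44 falls in M1 vs Mock, 19 to 25 and 18 to 21 in I vs M1, and 19 to 21 and 39 to 40 in I vs Mock.

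Replicate numbers did not pair the libraries: deviations of same-numbered libraries correlated at −0.115 to 0.047. With the replicate number as a block, members were 16 higher and 43 lower in M1 vs Mock, 23 and 18 in I vs M1, and 20 and 39 in I vs Mock. Depth limits the lowest members, Dnmt3b and Dnmt3aos, which had few fragments in the polarized libraries.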
